A study of Mus musculus with 2 samples.

Results

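The 9 genes described here encode inflammatory chemokines: Cxcl9, Cxcl10, Cxcl1, Cxcl2, Ccl2, Ccl7, Cx3cl1, Cxcl16 and Ccl20. They were taken by symbol from the 32285 genes counted in endothelial cells of mouse lymph nodes, and each symbol matched 1 row. The cells were sorted as endothelial after CD45-positive blood cells had been removed with magnetic beads, and their RNA was sequenced cell by cell. Each of 2 droplet libraries held the same 4 pools of cells, told apart by hashtag antibodies: peripheral and mesenteric nodes of WT mice, and both kinds of node of Xbp1-KO mice. Every group therefore had n = 2 pools, 1 per library. All pools, WT included, came from mice given tamoxifen. The labels state neither a Cre line, the number of animals, their sex nor their age, and they describe pooling before digestion for peripheral nodes, so p-values measure the spread between these pools only.

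The libraries held 7709 and 2903 barcodes with 33024170 and 14744778 UMIs (unique molecular identifiers, which mark single captured RNA molecules), a median of 3655 and 4319 per barcode. After hashtag, quality and doublet filters 9275 cells remained, of which 4909 were blood endothelial cells other than high endothelial ones, 3726 lymphatic and 407 high endothelial-like. The 8 sums of a class over library and pool held 250 to 1081, 65 to 1297 and 6 to 121 cells in that order. Xbp1 was lower in the Xbp1-KO than in the WT pool in 12 of 12 pairs of class, tissue and library, at 92.1 to 134 against 173 to 254 CPM in the other blood class (CPM, a gene's UMIs as a share of all UMIs of the summed cells, on the usual fixed scale). In the lymphatic class Xbp1 stood at 47.1 to 53.7 against 56.4 to 122 CPM. Xist, expressed from the inactive X chromosome, marked 73.1% and 82.5% of the cells in library 1's Xbp1-KO pools and 1.29% and 1.77% of its WT pools, whereas in library 2 it marked the WT pools, with 76.8% and 85.4% of cells against 0.114% and 0.608%. Within a library, genotype and sex thus cannot be told apart, and the fits below average over both libraries, in which the sexes are exchanged.

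Chemokines are small secreted or membrane-held proteins that steer leukocytes along gradients and onto the vessel wall through G protein-coupled receptors. CXCL9 and CXCL10 are induced by interferons and bind CXCR3 on activated T cells and natural killer cells; CXCL1 and CXCL2 bind CXCR2 on neutrophils; CCL2 and CCL7 bind CCR2 on monocytes. CX3CL1 and CXCL16 are made with a membrane anchor, can be cut loose by the proteases ADAM10 and ADAM17 and bind CX3CR1 and CXCR6, and CCL20 binds CCR6 on B cells, Th17 cells and some dendritic cells.

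The CXCR2, CXCR3 and CCR2 ligands lie in pairs on a shared chromosome. On GRCm38, with the GENCODE M21 annotation, Cxcl1 (chr5:90891241-90893115, plus strand) and Cxcl2 (chr5:90903871-90905938, plus) are neighbours on chromosome 5. Cxcl9 (chr5:92321347-92328079, minus) and Cxcl10 (chr5:92346638-92348889, minus) lie further along the same chromosome. Ccl2 (chr11:82035571-82037453, plus) and Ccl7 (chr11:82045712-82047525, plus) are neighbours on chromosome 11, which also holds Cxcl16 (chr11:70453983-70459984, minus). Ccl20 lies at chr1:83116766-83119167 (plus) and Cx3cl1 at chr8:94772009-94782427 (plus).

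NF-kB and interferon-response motifs are the letters through which these chemokines are best known to be induced. Promoters are shown for the 4 genes, of 6 with a promoter entry, that held a match to such a motif. Each is a 165-base window upstream of the RefSeq start on GRCm38.p6, written 5′ to 3′ on the gene's strand. Capitals mark matches on either strand to GGG, any 3 bases, TTCC (kB) or to GAAA, any 2 bases, GAAA (interferon-stimulated response element, ISRE); in Cxcl1 and in Cxcl2 a match on each strand overlaps by 9 bases and is drawn as 1 run.
Cxcl10, chr5:92348945-92349109, minus strand: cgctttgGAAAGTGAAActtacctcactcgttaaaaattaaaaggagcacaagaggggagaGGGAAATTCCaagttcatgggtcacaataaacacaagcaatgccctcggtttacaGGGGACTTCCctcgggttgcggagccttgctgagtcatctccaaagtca
Cxcl1, chr5:90891025-90891189, plus strand: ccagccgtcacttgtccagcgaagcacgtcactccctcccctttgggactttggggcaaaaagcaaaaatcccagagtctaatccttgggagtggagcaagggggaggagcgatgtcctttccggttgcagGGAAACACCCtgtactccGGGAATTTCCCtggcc
Cxcl2, chr5:90903679-90903843, plus strand: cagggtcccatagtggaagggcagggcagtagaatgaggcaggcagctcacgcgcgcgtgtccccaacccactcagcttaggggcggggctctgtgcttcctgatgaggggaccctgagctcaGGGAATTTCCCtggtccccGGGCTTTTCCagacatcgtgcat
Ccl20, chr1:83116546-83116710, plus strand: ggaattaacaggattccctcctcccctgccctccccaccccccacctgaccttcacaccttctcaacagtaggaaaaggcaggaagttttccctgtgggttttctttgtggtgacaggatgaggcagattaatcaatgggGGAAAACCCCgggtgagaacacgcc

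Of the 9 genes, 6 had a promoter entry (not Ccl2, Ccl7 or Cxcl16). Searched over 250 bases before to 50 after the start, 4 of these 6 held the kB letters and 1, Cxcl10, the ISRE letters, against 5.56% and 3.44% of 32851 promoters of the same length. Cxcl10 carried kB matches at -159 to -150 and -104 to -95 and its ISRE match at -213 to -204 from the start. The neighbours Cxcl1 and Cxcl2 carried the same letters, GGGAATTTCC, at -71 to -62 and -97 to -88. Cxcl9 and Cx3cl1 matched neither string. A match is a description of letters and not a measured binding site.

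Cells were clustered without the 9 chemokine genes, and clusters were named from marker genes as capillary-like (3 clusters, told apart by Penk, Scgb3a1 and Fabp4), transitional capillary-like, arterial-like, venous-like, tip-like, high endothelial-like and 5 lymphatic clusters. The lymphatic clusters were floor-like (named from a marker set with Coch and Madcam1), Marco medullary-like, Ptx3-like and Nts-like, and an unnamed cluster led by Gdf10 in which ceiling markers were highest without leading it. The Marco cluster also scored high for the floor markers. All levels below are CPM of the summed cells. A cluster's level is an average over its cells, and fewer expressing cells and less RNA per cell cannot be told apart from it alone.

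**Figure D1:**
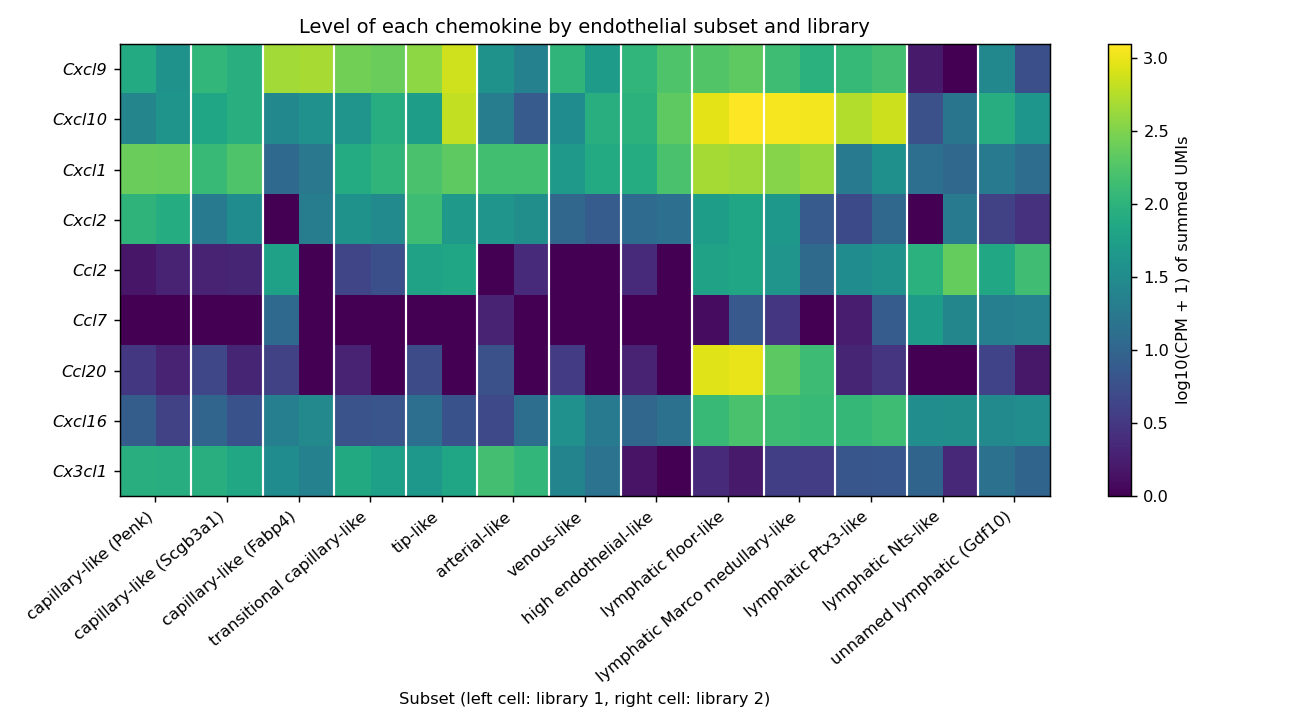
Level of each of the 9 chemokine genes in 13 endothelial clusters and 2 libraries, as log10(CPM + 1) in colour, rows being genes and columns clusters by library. Ccl20 was high in the floor-like cluster (879 and 982 CPM), Cx3cl1 was highest in arterial-like cells (145 and 112 CPM), and Nts-like cells were low for Cxcl9, Cxcl10 and Ccl20 and high for Ccl2.

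The interferon-type ligands Cxcl9 and Cxcl10 had different centres. Cxcl10 reached 1112 and 1083 CPM (libraries 1 and 2) in Marco medullary-like and 924 and 1239 CPM in floor-like lymphatic cells, whose ranges overlapped. Ptx3-like cells followed with 547 and 710 CPM, high endothelial-like cells had 96.9 and 212 CPM, and Nts-like cells only 4.86 and 14.99 CPM. The 653 CPM of tip-like cells in library 2 came almost wholly from 1 cell with 128 UMIs, and library 1 gave 53.5 CPM there. Thinned shares, here and below, are of the cells with at least 1500 UMIs, each thinned to that number. Cxcl10 was found in 47.9% and 49.0% of these Marco cells, and in 36.6% and 41.6% of these floor-like cells.

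Cxcl9 was instead highest in blood vessels. Fabp4 capillary-like cells had 455 and 491 CPM, tip-like cells 372 and 749 CPM with 110 of the library 2 UMIs in 1 cell, and transitional capillary-like cells 273 and 244 CPM. Floor-like lymphatic cells had 178 and 213 CPM and high endothelial-like cells 106 and 172 CPM. Nts-like cells held 1 Cxcl9 UMI in library 1 and 0 in 144 cells of library 2, which allows a share of cells with a UMI of up to 2.08%. Fabp4 cells were the shallowest of the clusters (median 1846.5 UMIs). Of those with at least 1500 UMIs, 29.4% and 33.1% held a Cxcl9 UMI after thinning. The Fabp4 cluster was low for Cxcl10, at 26.9 and 35.5 CPM.

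The neutrophil attractants were shared between vessel types. Cxcl1 stood at 471 and 433 CPM in floor-like, 338 and 406 CPM in Marco lymphatic and 243 and 237 CPM in Penk capillary-like cells, 3 levels whose ranges did not overlap. Tip-like (160 and 213 CPM), Scgb3a1 capillary-like (119 and 172 CPM) and arterial-like cells (144 and 144 CPM) came next, with overlap between neighbours in that order, and Fabp4 capillary-like (10.4 and 16.4 CPM) and Nts-like cells (12.5 and 9.99 CPM) were lowest. Among cells set aside as not endothelial, the mural and fibroblastic cluster carried more Cxcl1 than any endothelial one, at 565 and 719 CPM. Within endothelium, Cxcl2 was highest in Penk capillary-like cells (101 and 80.6 CPM) and tip-like cells (134 and 45.5 CPM), followed by floor-like lymphatic cells (53.3 and 66.3 CPM). The mural and fibroblastic cluster had 25.9 and 132 CPM. A small blood-cell-like cluster led by Prtn3, also set aside, held 4.50% of the Cxcl2 UMIs. Only 7.34% and 4.96% of Penk cells held a Cxcl2 UMI after thinning. Nts-like cells had 0 Cxcl2 UMIs in library 1 and 14 in library 2 (17.5 CPM). Cluster levels mix the tissues, and 89.9% of Penk but 20.6% of Scgb3a1 capillary-like cells came from peripheral nodes. In peripheral pools alone these 2 clusters overlapped, at 58.6 to 139.9 and 53.5 to 96.5 CPM for Cxcl2 and at 226 to 274 and 119.9 to 289 CPM for Cxcl1.

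The monocyte attractants followed another pattern. Among endothelial clusters Ccl2 was highest in Nts-like (94.4 and 231 CPM) and Gdf10 lymphatic cells (70.1 and 140 CPM), whose ranges overlapped. Ccl7 was highest in the same 2 clusters, at 49.3 and 24.98 and at 20.5 and 22.3 CPM. The mural and fibroblastic cluster, not endothelial, had 104 and 342 CPM of Ccl2 and 20.2 and 36.0 CPM of Ccl7. These levels rested on few cells: 3.12% and 8.45% of Nts-like cells held a Ccl2 UMI after thinning, and 132 of the Gdf10 cluster's 239 Ccl2 UMIs in library 2 lay in 1 cell. The 58.2 CPM of Ccl2 in Fabp4 capillary-like cells of library 1 were 39 UMIs of a single cell, and library 2 held none. Over all 9275 cells, the top 1% of cells held 81.3% of the Ccl2 UMIs and 98.2% of the 281 Ccl7 UMIs, against 16.7% for Cxcl16.

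The membrane-anchored chemokines leaned to opposite vessel types, with exceptions among high endothelial-like, venous-like, Nts-like and Gdf10 cells. Cx3cl1 levels ran in order from arterial-like (145 and 112 CPM) through Penk (88.5 and 83.6 CPM), Scgb3a1 (89.3 and 69.4 CPM) and transitional capillary-like cells (75.3 and 54.7 CPM) to venous-like cells (24.1 and 14.0 CPM), with overlap between neighbouring capillary levels. High endothelial-like cells held 1 Cx3cl1 UMI in all, 0.475 CPM in library 1 (exact Poisson 95% interval 0.012 to 2.65, counting error only) and 0 UMIs in library 2. Cxcl16, in contrast, reached 120 and 158 CPM in floor-like, 131 and 125 CPM in Marco and 114 and 136 CPM in Ptx3-like lymphatic cells, with overlapping ranges, and 31.9 and 32.5 CPM in Nts-like cells. No blood cluster passed 36.1 CPM. Venous-like cells, at 36.1 and 17.5 CPM, overlapped both Nts-like and Gdf10 lymphatic cells, the latter at 28.5 and 31.7 CPM.

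Ccl20 was the most restricted of the 9. The floor-like cluster held 85.5% of all its 5286 UMIs and the Marco cluster 13.4%. Levels were 879 and 982 CPM in floor-like cells, 207 and 133 CPM in Marco cells and at most 4.78 CPM in any other endothelial cluster and library. A small blood-cell-like cluster led by Igkc, set aside as not endothelial, held 0.189% of the UMIs. After thinning, 26.1% and 22.9% of floor-like cells held a Ccl20 UMI (median depth before thinning 5316 UMIs). None of the 403 and 144 Nts-like cells (median 3805 UMIs) did even unthinned, which allows shares of up to 0.744% and 2.08%. Expression was also uneven within the cluster, where a single cell of library 2 held 200 Ccl20 UMIs.

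The comparison of lymphatic with other blood endothelial cells, within pools, tested the split between vessel types. Of the 7 genes that passed the filter on low counts in both classes, 3 were higher and 3 lower in lymphatic cells at an adjusted p under 0.05, in a comparison where 32.5% of all 11248 genes tested were called higher and 27.7% lower. Most genes tested were called in one direction or the other, so the count is read against those shares and the sizes are given. Cxcl10 averaged 640 CPM in the lymphatic and 56.9 CPM in the blood pools, a log2 fold change of 3.43 ± 0.32 (SE, n = 8 pools, adjusted p = 8.97e-09), with lymphatic pools at 426 to 1052 and blood pools at 16.3 to 161 CPM and no overlap. Cxcl16 averaged 96.1 against 8.85 CPM (3.33 ± 0.12, adjusted p = 2.74e-15) and Ccl2 71.0 against 5.38 CPM (3.31 ± 0.24, adjusted p = 2.79e-10), each higher in 8 of 8 pools. The Ccl2 value ran from 2.65 to 4.42 with a library left out. It was 4.41 without the cell with the most UMIs of each chemokine in each sum. Ccl20 and Ccl7 passed the filter only through the lymphatic class, so their levels are given without a test. Ccl20 averaged 289 CPM in lymphatic pools and had 27 UMIs in all blood pools together (1.5 CPM). Ccl7 stood at 0 to 17.3 CPM in lymphatic pools and had 8 UMIs in all blood pools, 7 of them in 1 cell.

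Cx3cl1 was the reverse, with 4.98 CPM in lymphatic and 76.9 CPM in blood pools (-4.03 ± 0.14, adjusted p = 2.21e-15) and lower in 8 of 8 pools. Cxcl9 was lower by 0.92 on the log2 scale (SE 0.23, adjusted p = 0.00194), in 6 of 8 pools. Cxcl2 fell by 1.02 (SE 0.37, adjusted p = 0.024) but in 5 of 8 pools, and without the pool as block the adjusted p was 0.0526. Cxcl1 was not called (0.36 ± 0.24, adjusted p = 0.197). Its sign turned when the 38.7% of lymphatic cells with any UMI of blood-cell, mural or fibroblast markers were left out, to -0.52 (adjusted p = 0.0287). The summed mural and fibroblastic markers stood at 160 to 292 CPM in lymphatic and 11.5 to 29.7 CPM in blood pools, with Pdgfrb at no more than 1.59 CPM and Ptprc at no more than 0.427 CPM; their part in the result was not tested.

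High endothelial cells, the cuboidal lining of the venules through which lymphocytes enter nodes, were compared with the other blood cells in the same way. Of the 3 genes that passed the filter in both classes, Cxcl9, Cxcl10 and Cxcl1, 1 was called higher, where 19.1% of 9177 genes were, and none lower, where 21.5% were. Cxcl10 was higher in 7 of 8 pools (1.97 ± 0.17, adjusted p = 1.71e-20), at 0 to 272 CPM in pools of 6 to 121 cells. With all sums thinned to the smallest, at 38452 UMIs, it was no longer among the genes tested. Cx3cl1, Cxcl2 and Ccl2 passed the filter only through the other blood cells and are given as levels without a test. Cx3cl1 had its single UMI in a mesenteric pool, against 55.4 to 94.1 CPM in blood pools, and a count of 0 allows up to 2.8 to 5.004 CPM in the other mesenteric but 12.2 to 78.0 CPM in the peripheral high endothelial-like pools. Cxcl2 stood at 8.34 to 17.1 CPM in mesenteric high endothelial-like pools, with 1 UMI in the peripheral ones, and Ccl2 had 3 UMIs in all. Cxcl9 and Cxcl1 were not called (-0.05 ± 0.16 and 0.29 ± 0.15, adjusted p = 0.836 and 0.111).

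Peripheral and mesenteric nodes drain skin and gut. In other blood endothelial cells, 2 of 7 tested genes were higher in peripheral nodes, averaged over genotypes, where 0.519% of 10020 genes were called higher. Cxcl1 stood at 178 and 147 CPM in WT peripheral and 174 and 182 CPM in Xbp1-KO peripheral pools, against 46.3 and 36.1 CPM in WT mesenteric and 105 and 180.5 CPM in Xbp1-KO mesenteric pools. It was higher by 1.12 ± 0.18 (adjusted p = 0.0182) in 4 of 4 pairs, though the Xbp1-KO mesenteric pool of library 2 reached the peripheral range. Cxcl2 stood at 74.7 and 31.7 CPM (WT) and 81.4 and 61.7 CPM (Xbp1-KO) in peripheral pools, and at 10.5 and 5.16 CPM (WT) and 9.31 and 36.2 CPM (Xbp1-KO) in mesenteric pools. The difference was 2.11 ± 0.38 (adjusted p = 0.0246) in 4 of 4 pairs, with 1 mesenteric pool inside the peripheral range. It ran from 1.66 to 2.99 with a library left out.

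Cxcl10 stood at 46.5 and 74.0 CPM (WT) and 57.2 and 161 CPM (Xbp1-KO) in peripheral blood endothelial pools, and at 27.4 and 18.6 CPM (WT) and 16.3 and 55.0 CPM (Xbp1-KO) in mesenteric pools. It was higher in 4 of 4 pairs but not called (1.37 ± 0.39, adjusted p = 0.17), and was called with the library as block (1.30 ± 0.23, adjusted p = 0.00406; 2.67% of genes called higher). The make-up of the class moved with the tissue. Penk capillary-like cells were 23.7% to 38.4% of the class in peripheral and 2.46% to 4.26% in mesenteric pools, and Scgb3a1 capillary-like cells 8.36% to 12.4% against 34.9% to 56.8%. The summed blood-cell markers also moved, at 8.73 to 18.3 CPM in peripheral and 2.06 to 7.76 CPM in mesenteric pools. The part of these shares and markers in the class result was not tested.

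**Figure D2:**
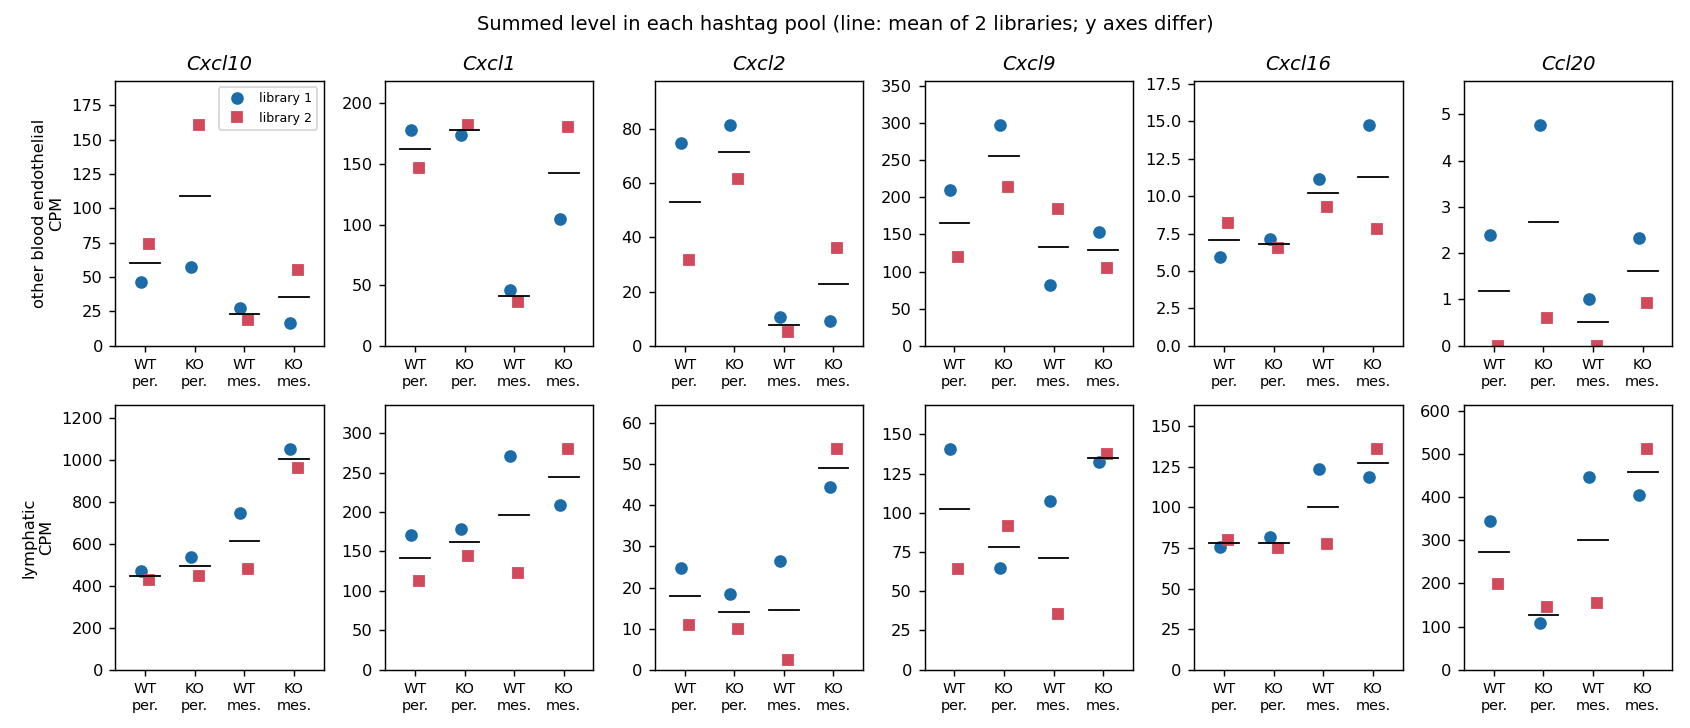
CPM of Cxcl10, Cxcl1, Cxcl2, Cxcl9, Cxcl16 and Ccl20 in each pool of the other blood and the lymphatic class, points being the 2 libraries and lines their mean. Peripheral blood endothelial pools sat above the mesenteric pool of the same genotype and library for Cxcl10, Cxcl1 and Cxcl2, whereas lymphatic Cxcl10 reached 1052 and 960 CPM in Xbp1-KO mesenteric pools.

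Among the 4 blood clusters with enough cells for a fit of their own, chemokines were called between tissues in 1, the Scgb3a1 cluster, and edgeR called none in arterial-like (4 tested), Fabp4 (1 tested) or transitional capillary-like cells (5 tested). An unadjusted p under 0.05 was reached by 3, 1 and 2 of them, and by 5.4%, 4.35% and 8.33% of all genes there. With the library as block Cxcl9 (2.55, adjusted p = 0.00873) and Cxcl1 (0.75, adjusted p = 0.0299) were called higher in arterial-like cells, where 0.714% of genes were, and Cxcl1 (0.89, adjusted p = 0.00747) in transitional cells, where 2.07% were. Cxcl1 was also called in transitional cells when the cell with the most UMIs of each chemokine in each sum was left out (1.19, adjusted p = 0.0172). In Scgb3a1 capillary-like cells (31 to 407 cells per sum) Cxcl10 stood at 109.5 and 425 CPM (WT) and 246 and 468.5 CPM (Xbp1-KO) in peripheral pools, against 45.4 and 6.14 CPM (WT) and 6.997 and 35.9 CPM (Xbp1-KO) in mesenteric pools. The groups did not overlap, and the difference was 3.25 ± 0.41 (adjusted p = 1.0e-04); 0.499% of 5010 genes were called higher. It rested on few cells, since only 3 cells held the 39 and the 68 UMIs of the peripheral pools of library 2. Without the cell with the most UMIs of each chemokine in each sum the difference was 2.35 ± 0.50 (adjusted p = 0.0269). Cxcl1 and Cxcl2 were also called higher there, by 1.36 ± 0.25 (adjusted p = 0.00529) and 2.92 ± 0.46 (adjusted p = 9.14e-04). With a library left out the values were 0.92 to 1.69 for Cxcl1, 2.62 to 3.71 for Cxcl2 and 3.13 to 4.77 for Cxcl10. Without those top cells Cxcl1 was not called (1.23, adjusted p = 0.19) and Cxcl2 no longer passed the filter on low counts, while Cxcl9 was called higher (1.70, adjusted p = 0.0269). With all cells Cxcl9 gave 1.02 there (adjusted p = 0.0738), and it was called with the library as block (1.06, adjusted p = 0.00735), where 1.6% of genes were. In the whole class of other blood cells Cxcl9 was not called (0.69, adjusted p = 0.407), with the WT pair of library 2 in the other order (119.8 CPM peripheral, 184 CPM mesenteric) and values of 0.18 and 1.17 with library 2 and library 1 alone; without top cells it was called (1.03, adjusted p = 0.0332).

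In lymphatic cells 3 of 9 tested genes were lower in peripheral nodes, where 2.87% of 10683 genes were called lower. With edgeR no chemokine was called when the 38.7% of lymphatic cells with other-type RNA were left out (8 tested, 3 with an unadjusted p under 0.05), nor when the 5 top cells of each chemokine in each sum were (7 tested, 1). Fewer genes were called in all under these settings, 0.783% and 0.981% lower, and 14.1% and 16.4% had an unadjusted p under 0.05. Cxcl10 stood at 468 and 426 CPM (WT) and 537 and 449 CPM (Xbp1-KO) in peripheral pools, and at 746 and 481 CPM (WT) and 1052 and 960 CPM (Xbp1-KO) in mesenteric pools. It was lower by 0.83 (SE 0.14, adjusted p = 0.00363) in 4 of 4 pairs, with the WT mesenteric pool of library 2 inside the peripheral range. Cxcl16 stood at 75.6 and 80.2 CPM (WT) and 81.6 and 75.2 CPM (Xbp1-KO) against 123 and 77.5 CPM (WT) and 119 and 136 CPM (Xbp1-KO), a difference of -0.67 ± 0.13 (adjusted p = 0.00988) in 3 of 4 pairs, and of -0.44 with library 2 alone. Ccl20 stood at 345 and 198 CPM (WT) and 108 and 145 CPM (Xbp1-KO) against 447 and 155 CPM (WT) and 406 and 511 CPM (Xbp1-KO), -1.12 ± 0.26 (adjusted p = 0.0242) in 3 of 4 pairs. For both the WT mesenteric pool of library 2, with 65 cells, lay inside the range of the peripheral pools.

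With the library as block Cxcl1 (-0.68 ± 0.15, adjusted p = 0.00281) and Cxcl2 (-1.04 ± 0.23, adjusted p = 0.00339) were called lower as well, where 7.61% of genes were; Cxcl2 gave -0.16 with library 2 alone. Without the single top cell of each chemokine in each sum, 65 cells of 3726, Cxcl16 alone stayed called (-0.64 ± 0.15, adjusted p = 0.027), and Cxcl10 gave -0.63 ± 0.28 (adjusted p = 0.249). Floor-like cells, where Ccl20 and Cxcl10 are high, made up 17.4% to 22.4% of lymphatic cells in peripheral and 27.7% to 40.1% in mesenteric pools. Ptx3-like cells, which also carry Cxcl10 and Cxcl16, went the other way, with 19.0% to 21.1% against 6.15% to 16.7%. The part of these shares was not tested in the class.

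Inside the floor-like cluster itself Cxcl10 stood at 725 and 929 CPM (WT) and 753 and 760 CPM (Xbp1-KO) in peripheral pools and at 1187 and 1711 CPM (WT) and 1919 and 1604 CPM (Xbp1-KO) in mesenteric pools. The groups did not overlap. The difference was -1.18 ± 0.15 (adjusted p = 1.03e-05; 5.54% of 7587 genes were called lower), and -1.09 ± 0.18 (adjusted p = 1.46e-04) without the top cells. Ccl20 (-0.89 ± 0.20, adjusted p = 0.00555) and Cxcl9 (-0.80 ± 0.25, adjusted p = 0.0443) were also called lower, in 2 and 3 of 4 pairs. For Ccl20 these were the 2 Xbp1-KO pairs (285 and 537 CPM peripheral, 1401 and 1342 CPM mesenteric). Both WT pairs went the other way (1279 and 1033 CPM peripheral, 1222 and 562 CPM mesenteric). Ccl20 was not called without the top cells (adjusted p = 0.149). With library 2 alone Ccl20 gave -0.34 and Cxcl9 0.21. With the library as block all 7 genes tested were called lower, where 8.58% of genes were, the added ones being Cxcl1, Cxcl2, Ccl2 and Cxcl16 (-0.85 to -0.50). The summed mural and fibroblastic markers moved with the tissue in this cluster, at 263 to 347 CPM in peripheral and 383 to 642 CPM in mesenteric pools without overlap, with Pdgfrb at 0 in all 8 sums and 5 to 8 of the 10 markers at 0 in each; their part in these calls was not tested. Interferon-response genes moved alongside: 6 of 17 were lower in peripheral floor-like cells and none higher, among them the antiviral genes Rsad2 (-2.01), Ifit1 (-1.35) and Ifit3 (-1.20).

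High endothelial-like cells gave no call among the 3 genes that passed the filter, Cxcl9, Cxcl10 and Cxcl1 (1 with an unadjusted p under 0.05; 0.196% of 5616 genes were called). Cxcl9 stood at 109 and 31.6 CPM (WT) and 32.4 and 52.0 CPM (Xbp1-KO) in peripheral and at 72.9 and 81.7 CPM (WT) and 147 and 254 CPM (Xbp1-KO) in mesenteric pools, -1.23 ± 0.38 (adjusted p = 0.384). The peripheral pools held 6 to 31 of these cells and 2 to 8 Cxcl9 UMIs.

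Whether the tissue difference itself differed between classes was tested as a tissue-by-class term over the same pools, which was chosen after seeing the data. For lymphatic against other blood cells 4 of the 7 genes that passed the filter in both classes were called, all in the negative direction, where 2.56% of 11248 genes were. Ccl20 and Ccl7 did not pass it in blood cells, so their tissue difference there was not measured. The peripheral-minus-mesenteric difference was lower in lymphatic cells by 3.13 for Cxcl2 (SE 0.26, adjusted p = 9.78e-12), 2.18 for Cxcl10 (SE 0.27, adjusted p = 1.74e-07) and 1.65 for Cxcl1 (SE 0.20, adjusted p = 1.47e-07). These 3 calls were also made without the pool as block (adjusted p = 0.00398, 0.0104 and 0.0171; 1.15% of genes called) and without the top cells (-3.18, -1.87 and -1.69). Cxcl9 (-1.23 ± 0.26, adjusted p = 0.00214) was not called without the block (adjusted p = 0.354) or with library 2 alone (-0.67, adjusted p = 0.217).

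**Figure D3:**
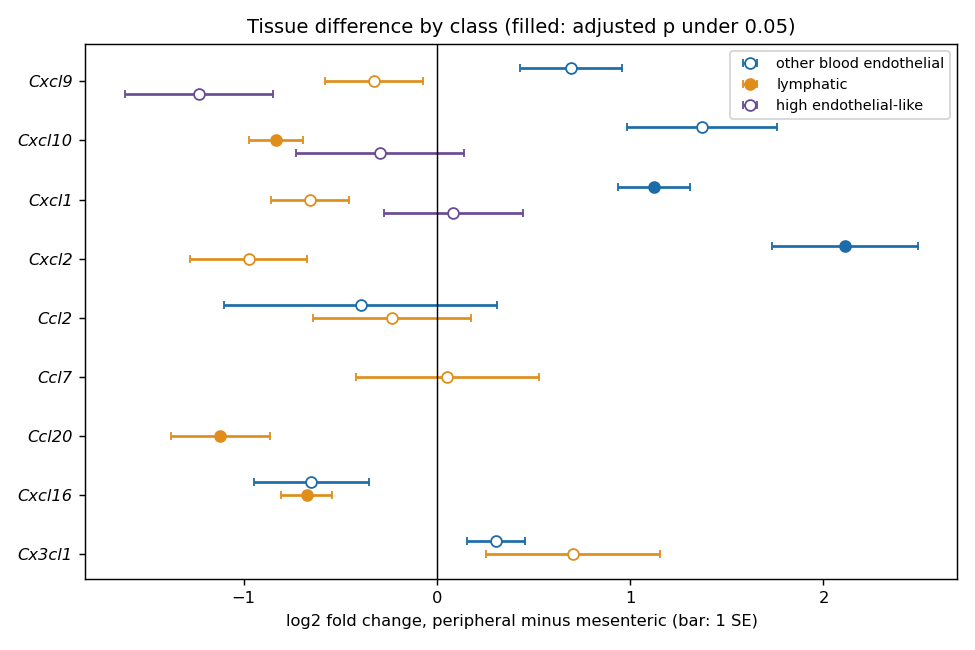
Log2 fold change of peripheral against mesenteric nodes for each chemokine that passed the filter in the other blood, lymphatic and high endothelial-like class, with SE bars; filled points have an adjusted p under 0.05. Cxcl1 and Cxcl2 lie above 0 in blood (1.12 and 2.11) and below 0 in lymphatic cells, where Cxcl10, Cxcl16 and Ccl20 are filled.

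Xbp1, which encodes an activator of genes that handle unfolded protein, was the gene deleted. Averaged over tissues, edgeR without the library as block called none of the 9 genes between Xbp1-KO and WT in any class. Over all genes the share called in this fit was 0% in each class, so Xbp1 itself, lower in 12 of 12 pairs, was not called either. At an unadjusted p under 0.05 there were 2 of 7 genes in other blood, 1 of 9 in lymphatic and 0 of 3 in high endothelial-like cells, where 2.35%, 5.93% and 4.13% of all genes were. Within mesenteric nodes edgeR called none of the 9 either, where 0%, 0.0374% and 0% of all genes were called. At an unadjusted p under 0.05 there were 2 of 7, 2 of 9 and 3 of 3 there, against 2.66%, 6.45% and 2.19% of all genes, and within peripheral nodes 1 of 9 in lymphatic cells (1.06%). Cxcl1 of other blood cells stood at 46.3 and 36.1 CPM in WT and 105 and 180.5 CPM in Xbp1-KO mesenteric pools, which did not overlap, and at 147 to 182 CPM in all 4 peripheral pools. The mesenteric difference was 1.82 ± 0.27 (adjusted p = 0.187), and with the library as block 1.79 ± 0.23 (adjusted p = 0.00257), where 0.439% of genes were called; DESeq2 called it too (adjusted p = 1.32e-05). It was 1.19 with library 1 alone and 2.44 with library 2 alone.

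With the library as block 3 more genotype calls were made in the 3 classes. Over both tissues Cxcl1 was higher in Xbp1-KO blood cells (0.94 ± 0.15, adjusted p = 0.0284; 0.15% of genes called; DESeq2 adjusted p = 0.0331), in 3 of 4 pairs, at 0.56 and 1.40 with library 1 and library 2 alone. In mesenteric lymphatic cells Cxcl10 (0.69 ± 0.14, adjusted p = 0.0119) and Cxcl2 (1.45 ± 0.35, adjusted p = 0.0413) were higher, where 1.04% of genes were called. Cxcl10 was 0.44 with library 1 alone and 1.01 with library 2 alone. For Cxcl2 the WT pool of library 2 held 1 UMI and 40 of the 90 UMIs of the Xbp1-KO pool lay in 1 cell. Its value without the block ran from 0.69 to 4.48 with a library left out and was 0.54 (adjusted p = 0.908) without the top cells. The dissociation-response genes, which rise when tissue is digested, moved with the same pools. All 14 lay above 0 in mesenteric blood cells (median 0.99), with none called without the block and 13 called higher with it, and their summed level was 19279 and 25218 CPM in WT and 27930 and 53079 CPM in Xbp1-KO mesenteric pools. In mesenteric lymphatic pools the level was 14069 and 15833 CPM in WT and 20406 and 27825 CPM in Xbp1-KO. Their part in the Cxcl1, Cxcl10 and Cxcl2 results was not tested.

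Mesenteric high endothelial-like cells showed values of the same direction, and with 52 to 121 cells per pool these were the best sampled sums of that class. Cxcl1 stood at 37.8 and 76.7 CPM in WT and 110 and 228 CPM in Xbp1-KO pools (1.55 ± 0.37, adjusted p = 0.378), and Cxcl9 at 72.9 and 81.7 against 147 and 254 CPM (1.36 ± 0.33, adjusted p = 0.378). Neither pair of groups overlapped, and neither gene was called, also not with the block (adjusted p = 0.0778 and 0.0944). Of the 147 and 254 CPM of Cxcl9, 99 of 157 and 62 of 208 UMIs lay in 1 cell each.

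Within 6 clusters that had at least 15 cells in all 8 sums, fitted after seeing the data, 10 of 120 tests of a chemokine were called, beside 0.625% of the tests of all genes in the same fits. Of these, 3 were also called without the top cell of each chemokine in each sum. With the library as block 22 were called, the 10 among them, beside 1.28% of all tests. The genotype calls that the block added were Cxcl1 in Scgb3a1 cells over both tissues (1.05, adjusted p = 0.0304; 0.359% of genes called higher) and in mesenteric nodes (1.70, adjusted p = 0.0034; 0.619%), Cxcl1 in transitional cells over both tissues (1.16, adjusted p = 0.00177; 0.529%) and Cxcl2 in floor-like cells for the difference of the genotype effect between tissues (2.05, adjusted p = 0.0192; 0.303%). In transitional capillary-like cells of mesenteric nodes Cxcl1 stood at 30.5 and 24.8 CPM in WT and 75.6 and 146 CPM in Xbp1-KO pools (1.98 ± 0.35, adjusted p = 0.0459; 0.102% of 5858 genes called). It was 1.28 and 2.61 with library 1 and library 2 alone, and 1.51 ± 0.41 (adjusted p = 0.399) without the top cells, with 23 of the 47 UMIs of the highest pool in 1 cell.

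In floor-like cells the genotype call for Ccl20 depended on single cells. Ccl20 stood at 1279 and 1033 CPM in WT and 285 and 537 CPM in Xbp1-KO peripheral pools, and at 1222 and 562 CPM in WT and 1401 and 1342 CPM in Xbp1-KO mesenteric pools. The peripheral groups did not overlap, with a difference of -1.56 ± 0.29 (adjusted p = 0.0266; 0.0395% of 7587 genes called), and the mesenteric-minus-peripheral difference of the genotype effect was 2.07 ± 0.40 (adjusted p = 0.0211; 0.132% called). In the WT peripheral pool of library 2, however, 182 of 267 UMIs lay in 1 of 42 cells. Without the top cell of each pool the peripheral values were 1130 and 340 CPM in WT and 251 and 434 CPM in Xbp1-KO, which overlap, with the order turned in library 2. The peripheral difference was -2.23 with library 1 alone and -0.96 with library 2 alone. The fit without top cells gave -1.15 ± 0.50 for peripheral nodes and 1.62 ± 0.70 for the difference (adjusted p = 1.0 for both). The share of floor-like cells with a Ccl20 UMI was 33.2% and 23.8% in WT and 22.4% and 29.2% in Xbp1-KO peripheral pools, likewise in opposite order between the libraries.

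Cxcl2 of floor-like cells was also called in mesenteric nodes, at 42.6 and 8.51 CPM in WT and 142 and 111 CPM in Xbp1-KO pools (1.66 ± 0.36, adjusted p = 0.0402; 0.25% called). Its WT pool of library 2 had 18 cells and 1 Cxcl2 UMI, 40 of 71 UMIs of the Xbp1-KO pool of that library lay in 1 cell, and without top cells it was not called (0.83, adjusted p = 0.885). With library 2 alone it was 3.71. In the same mesenteric floor-like pools the dissociation-response genes summed to 11900 and 18435 CPM in WT and 23741 and 30256 CPM in Xbp1-KO, and the mural and fibroblastic markers to 383 and 426 against 615 and 642 CPM, neither overlapping; their part was not tested.

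**Figure D4:**
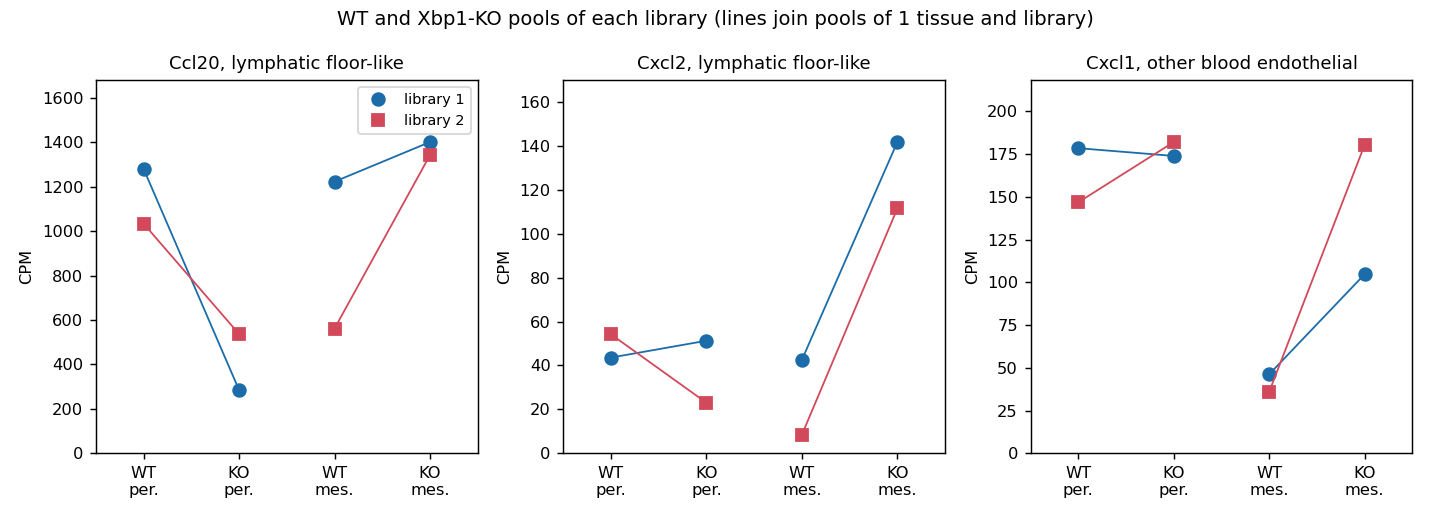
CPM by pool and library for Ccl20 and Cxcl2 in floor-like lymphatic cells and Cxcl1 in other blood endothelial cells, WT beside Xbp1-KO in each tissue. Cxcl1 in mesenteric blood cells lies at 46.3 and 36.1 CPM in WT and 105 and 180.5 CPM, while the WT peripheral Ccl20 point of library 2 (1033 CPM) rests largely on 1 cell.

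Single cells showed which chemokines were found together. Of cells with a Cxcl2 UMI 71.0% and 70.9% also held Cxcl1, against 19.1% and 21.1% of all endothelial cells. In floor-like cells, those with a Cxcl9 UMI held Cxcl10 in 81.9% and 81.8% of cases, against 51.7% and 56.1% of the whole cluster. In Fabp4 capillary-like cells, where Cxcl9 is high, only 2.42% and 3.51% of Cxcl9-positive cells held Cxcl10, close to the 2.56% and 4.96% of all cells of that cluster. Over all endothelial cells, those with both Cxcl9 and Cxcl10 were deeper than those with neither (5374 and 7272 against 3104 and 3926 median UMIs). Among Fabp4 cells the 3 with both in library 1 were shallower (971 against 1693). The 2 with both in library 2 were deeper (6481.5 against 2309). The part of depth in joint detection was not tested.

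Across 25 sums of cluster and library, which share libraries and depth, log2(CPM + 1) of Ccl2 and Ccl7 correlated with r = 0.78 and of Cxcl1 and Cxcl2 with r = 0.73, as a description. Among 11542 genes, those most like Ccl20 were Serpina12 (r = 0.97), Lamb3 (0.96) and Lpo (0.96), those most like Cxcl10 Phyhd1 (0.93), Jak1 (0.90) and Robo1 (0.90), and those most like Cxcl9 Papss2 (0.85), Fam111a (0.83) and Tspan15 (0.83). Cx3cl1 was nearest to Apol9b (0.94), Lipa (0.93) and Prps2 (0.93), and Cxcl16 to Dpyd (0.91), Grik5 (0.91) and Il33 (0.90). For Cxcl1 they were Foxf1 (0.87), Ptpn9 (0.83) and Slc15a3 (0.83), and for Cxcl2 Adcy5 (0.75) and Apol7c (0.74). Ccl2 was nearest to 1190005I06Rik (0.87), Fndc4 (0.85) and Slc45a3 (0.85), and Ccl7 to Prkar1b (0.91), Nat8l (0.91) and Plce1 (0.88).

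The signalling receptors of the 9 chemokines were almost absent from the endothelial cells themselves. Over other blood, lymphatic and high endothelial-like cells, Cxcr3 had 1, 19 and 0 UMIs, Cxcr2 12, 23 and 2, Cx3cr1 2, 36 and 1, and Ccr6 0 in all 3 classes. Ccr2 and Cxcr6 had 1 UMI each, in lymphatic cells. Atypical receptors, which bind chemokines without classical signalling, were abundant and divided by vessel: Ackr1 stood at 178 to 409 CPM in high endothelial-like pools, and Ackr2 at 49.3 to 83.6 and Ackr4 at 232 to 756 CPM in lymphatic pools. Ackr1 in other blood cells was lower in peripheral than mesenteric nodes (-1.74 ± 0.25, adjusted p = 0.008), where venous-like cells were 0.4% to 1.95% against 3.33% to 7.52% of the class. Ackr3 had 38.2 to 65.8 CPM in other blood and 42.3 to 157 CPM in lymphatic pools. The sheddases were expressed in both classes, Adam10 at 149 to 184 CPM in other blood and 187 to 290 CPM in lymphatic pools and Adam17 at 40.3 to 62.0 and 37.6 to 85.9 CPM.

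Response genes of the NF-kB and interferon pathways were counted from lists, to be read against the shares of all genes called: 32.5% higher and 27.7% lower in lymphatic, and 19.1% higher and 21.5% lower in high endothelial-like against other blood cells. In lymphatic against other blood cells, 10 of 14 NF-kB response genes were higher and 3 lower (median 0.71 against 0.05 over all genes), led by the inhibitor Nfkbie (2.23), with Birc3 at 1.59 and Ier3 at -1.65. Of 17 interferon-response genes 4 were higher and 10 lower (median -0.54), among them Rsad2 (-2.53), Ifit3 (-2.21) and Gbp4 (-1.53), while Cxcl10 was 3.43 higher. Of 14 dissociation-response genes 12 were lower. In high endothelial-like against other blood cells 12 of 13 NF-kB genes were higher and none lower (Traf1 1.61, Tnip1 1.53, Bcl3 1.39; median 1.22), and 15 of 17 interferon genes were lower and none higher (Rsad2 -4.72), again beside higher Cxcl10. Of the cytokine receptors, 2 of 9 were higher and 6 lower in lymphatic cells, with Il17ra, the interleukin-17 receptor subunit, at 2.81, Il1r1 at -2.44 and Tnfrsf1b at -1.59.

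Between tissues, no NF-kB, interferon or dissociation gene was called in other blood cells (14, 17 and 14 tested). In lymphatic cells 3 of 17 interferon genes, Rsad2 (-1.05), Ifit1 (-1.04) and Isg15 (-0.86), were lower in peripheral nodes, as Cxcl10 was, and none was higher, while the list's median was 0.04 against 0.01 over all genes. Over all genes 1.9% were called higher and 2.87% lower there. None of 14 NF-kB genes was called, and 6 of 14 dissociation genes were higher and 1 lower, with Zfp36 at 0.93, Fosb at 0.88 and Hspa1a at -0.95. Among 11 other inflammatory chemokines only 2 passed the filter in lymphatic cells, of which Ccl8 was higher in peripheral nodes (4.97 ± 1.25, adjusted p = 0.041) and Ccl5 higher in lymphatic than in other blood cells (3.06 ± 0.57, adjusted p = 1.0e-04).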

How the data were processed

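The authors deposited raw UMI counts per gene and barcode for each library, made by Cell Ranger; its version is 6.0.1 per the file headers and 6.1, with build mm10, per the submitters' processing notes; the labels name both a version 2 kit and version 3 chemistry. From these counts, hashtags were called with HTODemux (Seurat 5.3.0), and single-tag barcodes with at least 500 genes, at most 10% mitochondrial UMIs and no Scrublet call (65 and 4 removed) were kept. HTODemux found more than 1 tag on 685 and 130 barcodes and none on 238 and 83, and 3 barcodes occurred in both libraries. Cells were clustered in scanpy 1.11.5 (1955 variable genes without the chemokines and gene lists, 30 principal components, 15 neighbours, Leiden resolution 1) and named from marker genes, with Prox1 in at least 25% of cells for lymphatic clusters; 233 dividing, stromal and blood cells were left out. Marker names are rebuilt here and may differ from the study's own.

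For each class, the counts of every pool in every library were added up and tested with edgeR 4.0.16 (filterByExpr, TMM, quasi-likelihood test, Benjamini-Hochberg over all genes tested; called means an adjusted p under 0.05). One model held the 4 groups without the library; class comparisons had the pool as block. DESeq2 1.42.0, no filter, thinned sums, a hashtag ratio rule, a 5% mitochondrial limit, Leiden resolution 0.5 and leaving out cells with other-type RNA were alternatives, and the edgeR step was tested on simulated counts. The library is a labelled shared batch, so blocked values stand beside results they change: deviations from group means correlated at 0.14 to 0.42 between pools of a library in other blood, 0.04 to 0.22 in lymphatic and -0.02 to 0.19 in high endothelial-like cells.

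For shares of cells, each cell with at least 1500 UMIs was thinned to that number. This left out 476 shallower cells, so shares after thinning are of the cells kept. Intervals and limits cover counting error only; a limit is 3 counts of the total. The text names all 9 chemokines, up to 3 called genes per list with the largest change, all receptors and sheddases, and the 3 genes most like each chemokine by Pearson's r, of which 1 is not reported here. The members, lists and several tests were chosen with earlier results of these data known.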

Additional observations from a re-analysis of the deposited data

Results flagged for a closer look

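The tissue difference (peripheral minus mesenteric, log2) differed between lymphatic and other blood endothelial cells, by the test of the difference itself, for Cxcl2 (-3.13), Cxcl10 (-2.18), Cxcl1 (-1.65) and Cxcl9 (-1.23). The fit also gave -2.54 for Ccl20, which passed the filter only through lymphatic cells and had 27 UMIs in all other blood cells, so no difference between the classes is read from it. Between high endothelial-like and other blood endothelial cells it differed for Cxcl9 (-2.65, adjusted p = 7.44e-10), Cxcl10 (-1.76, adjusted p = 1.21e-05) and Cxcl1 (-1.16, adjusted p = 0.035), where 0.392% of 9177 genes were called lower and the median over all genes was -0.26. None of these 3 was called without the pool as block (adjusted p = 0.23, 0.576 and 0.56). Cxcl1 was not called with either library left out and Cxcl10 not without library 2 (-1.84, adjusted p = 0.203), and peripheral high endothelial-like sums held 6 to 31 cells. The fitted -4.29 for Cxcl2 rests on 1 UMI in the peripheral sums together, and the gene passed the filter only through the other blood cells, so nothing is read from it. The Xbp1-KO effect on Ccl20 in floor-like lymphatic cells differed between the tissues by 2.07, a call that was lost without the top cell of each sum, as given above. All groups had 2 pools, so single outlying pools were not tested for.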

How the results depend on the processing

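Counts of chemokines called moved by over 1.5 times as follows. In other blood cells, Xbp1-KO against WT called 0, but 1 with the replicate block, 1 with DESeq2 and 3 without the filter on low counts; within mesenteric nodes 0 became 1, 1 and 2 under the same settings, and the difference of the genotype effect between tissues 0 became 1 without the filter. Peripheral against mesenteric called 2 there, 4 without the filter and 1 with thinned sums. In lymphatic cells the tissue comparison called 3, but 5 with the replicate block, 5 without the filter, 1 without the top cell and 0 without the 5 top cells of each chemokine per sum (both chosen after seeing the data) and 0 without cells with other-type RNA. Genotype in lymphatic cells called 0 over both tissues, within peripheral nodes, within mesenteric nodes and as the difference; without the filter these became 1, 1, 3 and 3, and with the block mesenteric nodes gave 2. High endothelial-like against other blood cells called 4 (3 of them genes that passed the filter only through the blood cells), and 2 without the block, 2 with DESeq2, 0 with thinned sums and 2 to 2 with a library left out. Without the block the tissue-by-class term called 3 in place of 5 chemokines for lymphatic and 0 in place of 4 for high endothelial-like against other blood cells. Of single values, Cxcl9 in floor-like cells between tissues ran from -1.496 without replicate 2 to 0.21 without replicate 1, so its direction turned (the cause was not tested), and Cxcl1 in lymphatic against other blood cells turned to -0.52 without cells with other-type RNA.

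Without thinning, the share of cells with a UMI in the cluster where each gene is highest was 22.7% for Cxcl9 (15.1% thinned), 66.1% for Cxcl10 (48.5%), 51.3% for Cxcl1 (31.4%), 8.65% for Cxcl2 (6.15%), 10.4% for Ccl2 (5.79%), 5.41% for Ccl7 (2.97%), 28.5% for Cx3cl1 (16.4%), 51.8% for Cxcl16 (19.9%) and 34.4% for Ccl20 (24.5%). At Leiden resolution 0.5 the floor-like cluster was larger and its Ccl20 level 749 CPM in place of 930.5. Of the counts and main levels under all alternatives, 142 stayed within their limits and 34 moved. Fits of a class with 1 library left out have no residual degrees of freedom and give values without a test. Groups of 2 pools, high endothelial-like sums of as few as 6 cells and chemokine UMIs held by few cells limit what could be detected.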
